A study of Mus musculus with 8 samples.

Results

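Lysosomal proteases, glycosidases, lipid hydrolases, activator proteins, membrane proteins and proton pump subunits were followed in CD11c-positive splenocytes of lupus-prone and control mice. The set holds 41 genes named for their place in the lysosome, of which 40 were among the 13786 protein-coding genes of the deposited count table. Atp6v0d2 was not analysed here. RNA was sequenced from 4 C57BL/6 controls and 4 B6.SLE123 mice, all of them females aged 7 weeks. B6.SLE123 is a congenic strain that carries the lupus susceptibility intervals Sle1, Sle2 and Sle3 of a New Zealand mixed strain on the C57BL/6 background, on chromosomes 1, 4 and 7. The mice received no treatment. The strain difference is therefore the 3 intervals together, and their separate parts cannot be told apart.

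Lysosomes break down material delivered by endocytosis, phagocytosis and autophagy. A vacuolar proton pump keeps the lumen acidic, hydrolases made as inactive precursors become active there, and a coat of glycosylated membrane proteins encloses them. In antigen-presenting cells the same enzymes cut antigens and the invariant chain that blocks MHC class II molecules. Dendritic cells are known for restrained lysosomal proteolysis and macrophages for high hydrolase content. CD11c, the product of Itgax, marks dendritic cells but is also found on some macrophages and other leukocytes, so a selection for it can take up several cell types. The strain comparison asked how the RNA of these cells differs between B6.SLE123 and C57BL/6 mice at a young age.

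Counts summed to between 25563070 and 37367094 per mouse, and 39 of the 40 lysosomal genes had at least 100 counts in every mouse. Ctsk was the exception. Mice of a strain differed by more than sampling noise (chi-square per degree of freedom between 4.96 and 18.9 over the pairs), and each was kept as a replicate. The sources do not say how the isolations and libraries were grouped, so p-values measure the spread between these samples, which may be partly technical. The genotype labels number the strain name upwards from mouse to mouse, so the titles and the methods were used to assign the strain. Levels are given in CPM, the counts of a gene divided by the mouse's total and scaled to a common library size with TMM factors, and log2 fold changes as B6.SLE123 over C57BL/6, tested with edgeR's quasi-likelihood test across all genes. A gene is called where its Benjamini-Hochberg adjusted p is below 0.05.

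Most lysosomal genes were lower in B6.SLE123 mice. Of the 40 genes, 28 (70%) fell and 3 (7.5%) rose, while over all genes tested 26.6% fell and 26.7% rose. The other 9 did not pass the test. Falls of more than 2-fold were seen for 7 genes (17.5%, against 8.29% of all genes): the proteases Ctsl, Ctsd, Lgmn, Ctsb and Ctsc, the phosphatase Acp2 and the sialidase Neu1. The thioesterase Ppt1 was the single gene that rose more than 2-fold (2.5%, against 2.76% of all genes), and smaller rises were seen for the aspartic protease Ctse and the β-glucuronidase Gusb. The median log2 fold change of the 40 genes was -0.47, beside -0.002 for all genes. For 30 of them (75%) the ranges of the 2 strains were apart, which held for 48.9% of all genes. Among those 30 were 26 of the 28 that fell. In RNA from many cells, fewer cells of a type and less RNA per cell cannot be told apart.

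**Figure D1:**
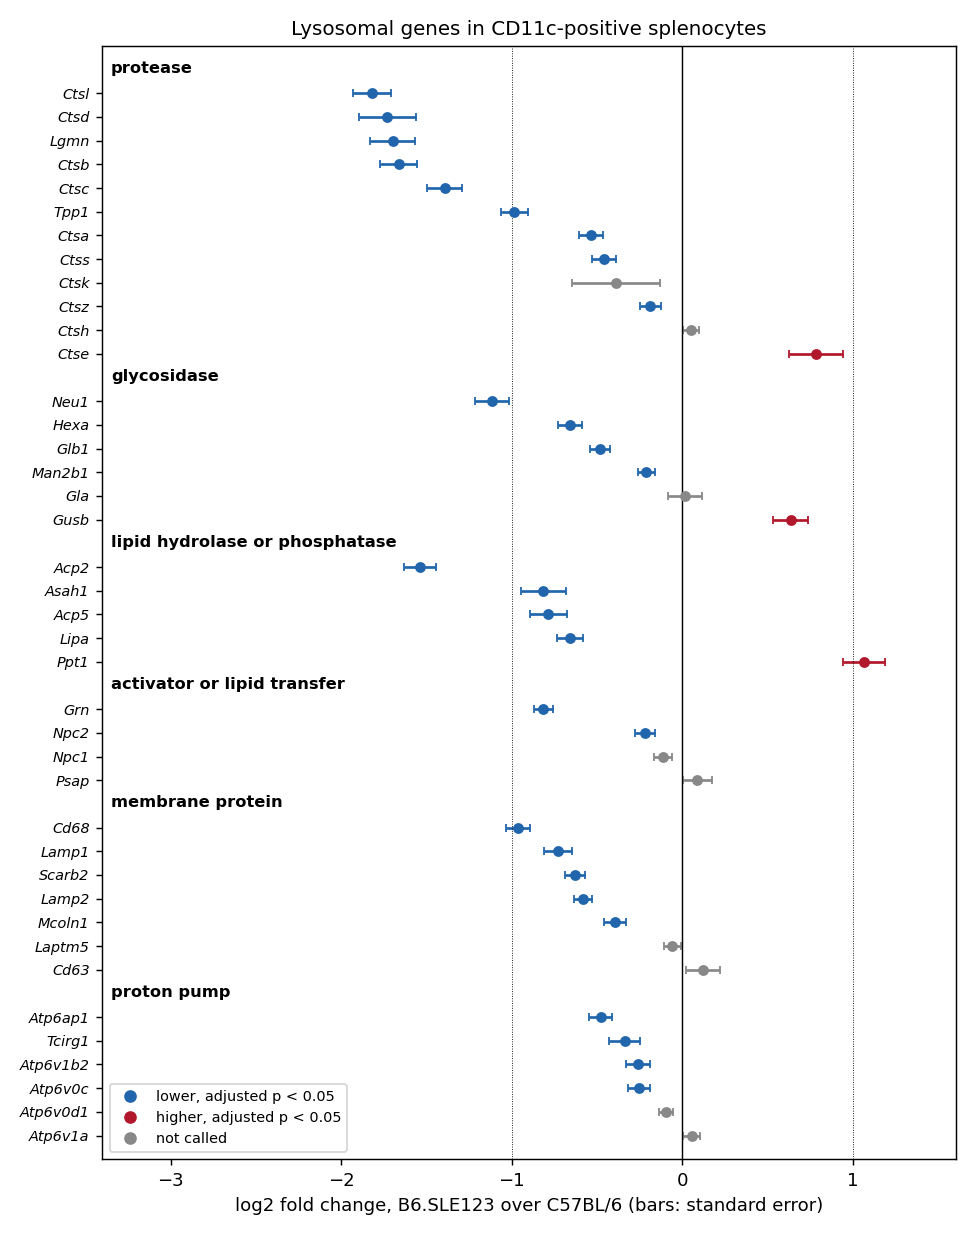
Log2 fold change of each of the 40 lysosomal genes (x axis, B6.SLE123 over C57BL/6, bars: standard error), grouped by role, with called falls in blue, called rises in red and genes that did not pass the test in grey; dotted lines mark a 2-fold change. The 7 falls beyond the left dotted line lie in the protease, glycosidase and phosphatase groups, and the proton pump genes all sit between -0.48 and 0.05.

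Markers of macrophages moved with the same comparison. All 15 red pulp macrophage markers fell more than 2-fold in B6.SLE123 mice (median log2 fold change -2.40, highest -1.66), as did 8.29% of all genes. The marker lists were chosen with earlier results of these data known, so such counts are a description. The summed level of the red pulp macrophage markers ranged from 14710 to 18800 CPM in C57BL/6 mice and from 2099 to 4183 CPM in B6.SLE123 mice. Defining genes of these iron-recycling cells such as Spic (mean 373 and 56.4 CPM) and Vcam1 (2471 and 453 CPM) were detected in both strains. The red pulp list also holds C1qa, C1qb and C1qc, whose fall the study reported as one of dendritic cells. The study also saw it by RT-PCR in dendritic cells of B6.SLE123 and lupus-prone NZBWF1 mice. In its single-cell data it assigned C1q expression to monocyte-related dendritic cells, which it defined partly by Csf1r, also on the red pulp list. The 3 marginal zone macrophage markers also fell, with a median of -1.77. Of 9 type 1 dendritic cell markers, 7 rose and 1 fell, and their summed level went from between 3497 and 3999 CPM to between 5387 and 7110 CPM. Wdfy4 made up the largest part of this sum (mean 1851 and 3344 CPM), and Cadm1 and Batf3 did not rise. All 3 markers of conventional dendritic cells as a whole, Itgax, Zbtb46 and Flt3, rose, with a median of 0.32. None of these lists shares a gene with the lysosomal set, and only 3 lysosomal genes (Ctsl, Ctsd and Lgmn) fell further than the least changed red pulp marker, with Ctsb equal to it at 2 decimals. Among the remaining lists, type 2 dendritic cell (3 of 7), monocyte (2 of 6), B cell (6 of 8), T cell (1 of 6), NK cell (1 of 5) and erythroid markers (5 of 6) included falls and no rises, while neutrophil (2 rises and 2 falls of 7) and plasmacytoid dendritic cell markers (1 rise and 2 falls of 6) moved both ways. Over all genes tested 26.6% fell and 26.7% rose. The part that these markers' cells play in the lysosomal values was not tested.

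The order of the mice within a strain was compared as well. In B6.SLE123 mice the red pulp sum was lowest in replicate 2, at 2099 CPM, followed by replicate 1 (2730 CPM), replicate 3 (3734 CPM) and replicate 4 (4183 CPM). The marginal zone macrophage sum had the same order (34.54, 42.27, 61.17 and 62.55 CPM). This order was found for 13 of the 40 lysosomal genes (Ctsa, Ctsb, Ctsc, Ctsd, Ctse, Ctss, Lgmn, Tpp1, Neu1, Acp2, Laptm5, Atp6v0c and Atp6ap1) and for 5.48% of all genes. In C57BL/6 mice the order of the red pulp sum was shared by 3 of the 40 (Ctsc, Man2b1 and Psap) and by 4.35% of all genes. The order of the type 1 dendritic cell sum was shared in C57BL/6 mice by 2 of the 40 (Gusb and Ppt1) and by 3.56% of all genes. In B6.SLE123 mice it was shared by 1 of the 40 (Ppt1) and by 5.44% of all genes. Genes were compared with the orders of the red pulp and type 1 dendritic cell sums only. With 4 mice per strain these orders are a description.

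Promoters were read because transcription factors of the TFEB and MITF family are known to act on many lysosomal genes through a motif built on CACGTG. RefSeq promoter windows of the GRCm38.p6 assembly, running from 250 bases before to 50 bases after the start, were at hand for 34 of the 40 genes, with 43 windows in all because some genes have several starts. Counted by gene, 6 of the 34 held the 8 letters TCACGTGA in at least 1 window (17.6%, exact 95% interval 6.76% to 34.5%), as did 2.05% of the 10908 table genes with a window. Counted by window, it stood in 6 of 43 (14.0%) and in 0.974% of all 32851 windows of this length. The core CACGTG was held by 10 of 34 genes (29.4%, 15.1% to 47.5%) and 11.2% of table genes, and stood in 10 of 43 windows (23.3%) and 7.15% of all windows. Both words read the same on either strand, and every TCACGTGA holds a CACGTG. The 6 stretches with TCACGTGA follow, since their genes divide between falls and no call. Capitals mark the motif and any further CACGTG, the stretches run 5′ to 3′ on the gene's strand, and positions count from the start.
Ctsa, chr2:164833730-164833797, plus strand, first match at -13: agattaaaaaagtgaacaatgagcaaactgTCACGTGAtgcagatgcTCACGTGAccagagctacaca
Ctsd, chr7:142387889-142387956, minus strand, at -99: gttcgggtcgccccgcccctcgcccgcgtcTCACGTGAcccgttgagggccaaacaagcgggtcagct
Mcoln1, chr8:3500443-3500510, plus strand, at -46: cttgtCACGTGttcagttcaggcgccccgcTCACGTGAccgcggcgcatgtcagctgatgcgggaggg
Gla, chrX:134601196-134601255, minus strand, first match at -228: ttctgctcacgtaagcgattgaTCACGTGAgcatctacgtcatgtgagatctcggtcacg
Atp6v0d1, chr8:105566031-105566098, minus strand, at -4: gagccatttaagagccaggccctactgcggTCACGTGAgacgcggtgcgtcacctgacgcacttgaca
Atp6v1a, chr16:44139354-44139421, minus strand, at -132: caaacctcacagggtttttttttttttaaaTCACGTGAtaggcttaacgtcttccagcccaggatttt
The window of Gla holds a second TCACGTGA that starts inside the printed stretch and ends beyond it. Ctsa has another window, at the gene start given in the table, which holds neither word. Ctsa, Ctsd and Mcoln1 fell, while Gla, Atp6v0d1 and Atp6v1a did not pass the test, and the median log2 fold change of the 6 was -0.25.

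The 4 genes with a CACGTG but no TCACGTGA in any window all fell, with a median log2 fold change of -1.21. Their stretches are shown beside the others for comparison, with each whole CACGTG in capitals.
Ctsl, chr13:64370721-64370770, minus strand, at -236: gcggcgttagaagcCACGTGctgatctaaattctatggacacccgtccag
Lgmn, chr12:102439106-102439171, minus strand, at -49: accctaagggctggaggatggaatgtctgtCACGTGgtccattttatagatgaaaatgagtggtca
Lamp1, chr8:13159070-13159135, plus strand, first of 4 matches at -61: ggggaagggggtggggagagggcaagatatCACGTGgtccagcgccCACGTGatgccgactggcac
Glb1, chr9:114401000-114401065, plus strand, at -48: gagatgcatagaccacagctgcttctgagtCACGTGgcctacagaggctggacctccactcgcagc
Lgmn also has another window, further upstream, with no match. Of the 24 genes with neither word in any window, 18 fell, 2 rose and 4 did not pass the test, with a median of -0.47. A match is a run of letters and not a measured binding site.

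The proteases held the largest falls. Of 12 genes, 9 fell and 1 rose, and the median log2 fold change was -0.76. Ctsl encodes a cysteine protease known for invariant chain processing in thymic epithelium and for broad protein breakdown in macrophages, and lies at chr13:64359337-64370890 (mm10, minus strand, as in the table). It stood at 75.6, 75.0, 91.2 and 80.6 CPM in the 4 C57BL/6 mice and at 25.2, 17.5, 23.6 and 25.5 CPM in the 4 B6.SLE123 mice. Every B6.SLE123 value was below every C57BL/6 value, and the mean went from 80.6 ± 7.49 (SD, n = 4) to 23.0 ± 3.74 CPM, a log2 fold change of -1.82 ± 0.11 (SE, edgeR adjusted p = 5.7e-07). Of all genes tested, 557 had a lower log2 fold change. Exons of an antisense gene cover 26.9% of the exon bases of Ctsl and a pseudogene on the same strand covers 6.09%. Reads from the pseudogene overlap cannot be assigned by strand. Reads from the antisense overlap can be only if counting used strand, which is not stated.

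Ctsd, the main lysosomal aspartic protease, lies at chr7:142375911-142388038. It measured 517, 503, 674 and 544 CPM in C57BL/6 mice and 148, 122, 182 and 224 CPM in B6.SLE123 mice, a 3.32-fold fall (log2 -1.73 ± 0.17, edgeR adjusted p = 9.0e-06). Replicate 3 was the highest control and replicate 2 the lowest B6.SLE123 mouse, and the strains stayed apart. A second annotated gene on the same strand shares 34.4% of its exon bases. Its promoter stretch with TCACGTGA is printed above.

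Ctsb at chr14:63122462-63145923 encodes a cysteine protease that also acts as a carboxypeptidase. It stood at 3149, 3118, 3667 and 3190 CPM in C57BL/6 mice and 1001, 825, 1089 and 1231 CPM in B6.SLE123 mice. The fall was 3.17-fold (log2 -1.66 ± 0.11, edgeR adjusted p = 7.6e-07), and the highest B6.SLE123 mouse lay far below the lowest control. Fdft1, on the opposite strand, shares 12.8% of the exon bases of Ctsb. Lgmn at chr12:102394084-102439813 encodes the asparaginyl endopeptidase that trims several cathepsins to their mature forms. Its values were 556, 552, 650 and 589 CPM in controls and 171, 132, 204 and 217 CPM in B6.SLE123 mice, a 3.24-fold fall (log2 -1.70 ± 0.13, edgeR adjusted p = 2.2e-06). Ctsc at chr7:88278085-88310888 encodes dipeptidyl peptidase I, which activates serine proteases of granules. It fell from 605, 562, 636 and 591 CPM to 203, 188, 258 and 263 CPM (log2 -1.39 ± 0.10, edgeR adjusted p = 1.5e-06). In all 3 genes the 4 B6.SLE123 values increased from replicate 2 through 1 and 3 to 4. This was the order of the red pulp macrophage sum (2099 to 4183 CPM) and of the marginal zone macrophage sum (34.54 to 62.55 CPM).

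Ctss, the cysteine protease that completes invariant chain removal in dendritic cells and B cells, had the highest level per length of exon among proteases in both strains (mean 816 and 594 CPM per kb). It stood at 1040, 1008, 1151 and 1234 CPM in C57BL/6 mice and at 806, 730, 838 and 852 CPM in B6.SLE123 mice. The strains did not overlap, and the fall was 1.38-fold (log2 -0.46 ± 0.07, edgeR adjusted p = 0.00030). Within a mouse the log2 ratio of Ctsl to Ctss was -3.78 ± 0.12 (SD, n = 4) in C57BL/6 and -5.14 ± 0.17 in B6.SLE123, a difference of -1.36. An exact two-sided permutation test gave p = 0.0286, the smallest value that 4 against 4 mice allow, and 0.0858 after adjustment over the 3 ratios tested. The ratio was lower in 4 of 4 B6.SLE123 mice than in any control.

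Ctse encodes an aspartic protease of endosomes rather than mature lysosomes, and it was the protease that rose. At chr1:131638306-131675505, it measured 5.07, 7.18, 7.99 and 5.03 CPM in C57BL/6 mice and 9.71, 9.60, 12.2 and 12.2 CPM in B6.SLE123 mice. Its level was low, and the log2 fold change was 0.78 ± 0.16 (edgeR adjusted p = 0.0018) with no overlap. Tpp1, a tripeptidyl peptidase, fell from a range of 154 to 189 CPM to one of 78.3 to 95.8 CPM (log2 -0.98), just under 2-fold. Ctsa, the carboxypeptidase that protects Neu1 and Glb1 from breakdown, fell 1.45-fold (log2 -0.54), and 1 of its 2 promoter windows held 2 TCACGTGA words. Pltp, on the opposite strand, shares 10.5% of the exon bases of Ctsa. Ctsz, a carboxypeptidase, fell least (log2 -0.19 ± 0.06, edgeR adjusted p = 0.023), its strains overlapped, and without C57BL/6 replicate 3 its adjusted p was 0.067, with C57BL/6 replicate 4 or B6.SLE123 replicate 3 left out giving 0.056 and 0.057.

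Ctsh, an aminopeptidase, and Ctsk, the collagen-cutting protease of osteoclasts, did not pass the test. Ctsh ranged from 490 to 532 CPM in C57BL/6 mice and from 500 to 554 CPM in B6.SLE123 mice (log2 0.05 ± 0.05, edgeR adjusted p = 0.37). Ctsk, which lies next to Ctss on chromosome 3, had a low level, at 0.605, 0.614, 0.427 and 0.629 CPM in controls and 0.475, 0.457, 0.326 and 0.472 CPM in B6.SLE123 mice (log2 -0.39 ± 0.26, edgeR adjusted p = 0.23). The log2 ratio of Ctsk to Ctss differed by 0.11 between the strains (exact permutation p = 0.571).

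**Figure D2:**
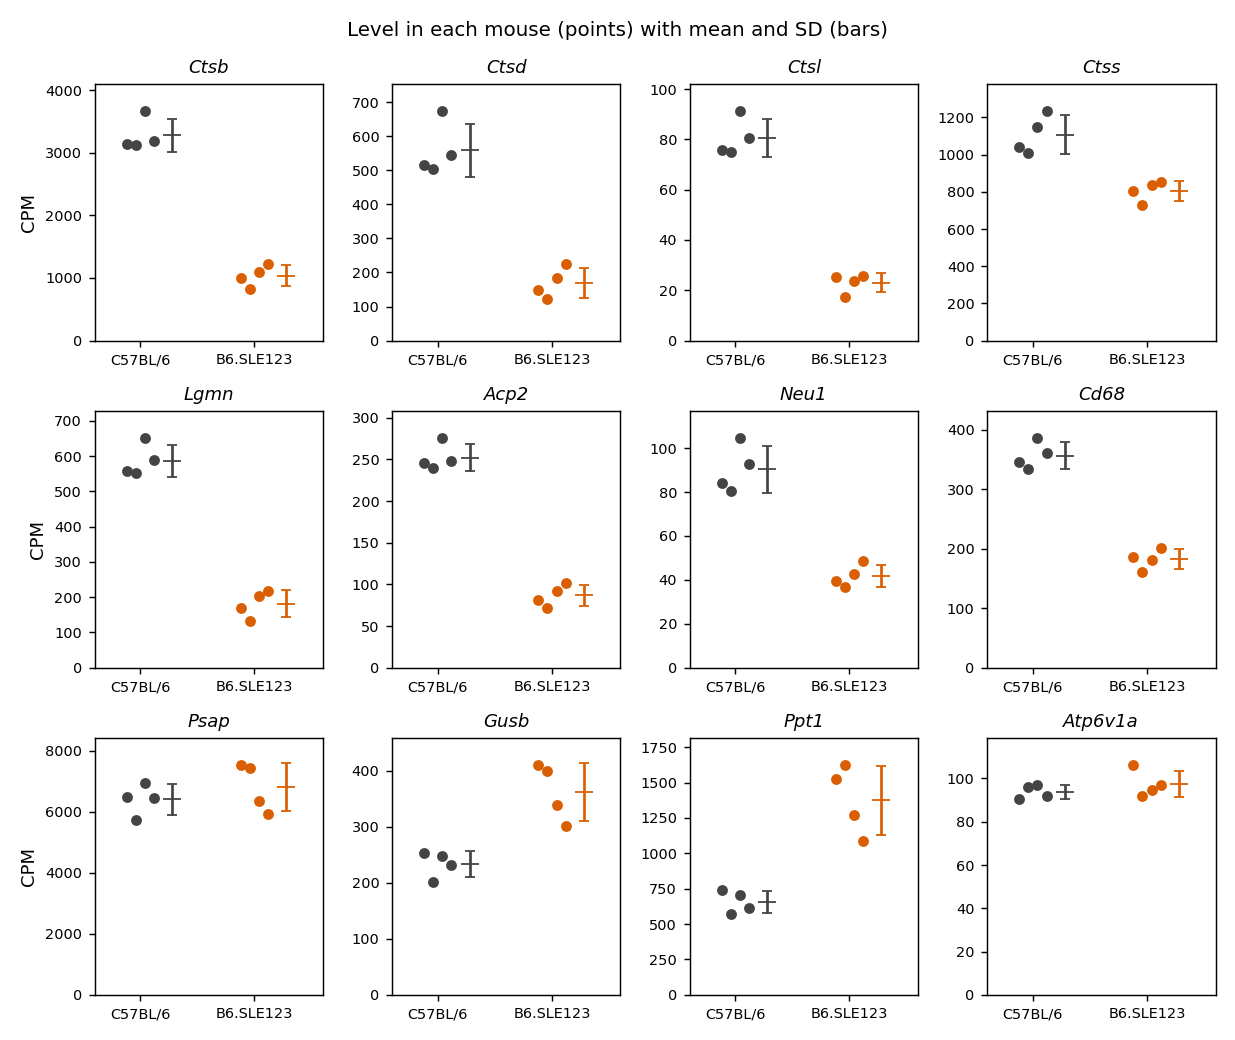
CPM (y axis, linear from 0) of 12 lysosomal genes in each mouse, 4 C57BL/6 in grey and 4 B6.SLE123 in orange, with the mean and SD beside the points. For Ctsb, Ctsd, Ctsl, Ctss, Lgmn, Acp2, Neu1 and Cd68 every orange point lies below every grey one, for Gusb and Ppt1 every orange point lies above, and for Psap and Atp6v1a the points overlap.

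Glycosidases remove sugars from glycoproteins and glycolipids. Of 6 measured, 4 fell and 1 rose, with a median log2 fold change of -0.35. Neu1, the lysosomal sialidase at chr17:34931253-34935953, fell most, from 83.9, 80.4, 105 and 93.0 CPM to 39.3, 36.9, 42.5 and 48.8 CPM. The lowest control was well above the highest B6.SLE123 mouse, and the fall was 2.17-fold (log2 -1.12 ± 0.10, edgeR adjusted p = 4.7e-06). Its partners in the enzyme complex fell less, Ctsa by 0.54 and the β-galactosidase Glb1 by 0.48 on the log2 scale. Hexa, the α subunit of β-hexosaminidase, which degrades a ganglioside, fell from between 260 and 332 CPM to between 180 and 201 CPM (log2 -0.66). Tmem202, on the opposite strand, shares 12.8% of the exon bases of Hexa.

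Gusb, the β-glucuronidase at chr5:129989011-130003049, rose. It measured 253, 202, 249 and 231 CPM in C57BL/6 mice and 410, 400, 340 and 301 CPM in B6.SLE123 mice, a 1.55-fold rise (log2 0.63 ± 0.10, edgeR adjusted p = 0.00034) without overlap. Its B6.SLE123 values were lowest in replicate 4, where the red pulp macrophage sum was highest. In C57BL/6 mice Gusb was lowest in replicate 2, where that sum was lowest as well. Man2b1, an α-mannosidase, had the highest level per length of the glycosidases (mean 194 and 167 CPM per kb), at 1590, 1489, 1600 and 1544 CPM in controls and 1242, 1403, 1351 and 1372 CPM in B6.SLE123 mice. The strains lay apart, but the fall was only 1.16-fold (log2 -0.21 ± 0.05, edgeR adjusted p = 0.0040). Gla, the α-galactosidase whose loss causes Fabry disease, was at 5.18 to 5.99 CPM in controls and 5.36 to 6.30 CPM in B6.SLE123 mice (log2 0.01 ± 0.10, edgeR adjusted p = 0.91). Leaving out C57BL/6 replicate 2 or B6.SLE123 replicate 4 turned the sign of Gla, to -0.02 and -0.04.

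Of the 5 lipid hydrolases and acid phosphatases 4 fell and 1 rose, with a median log2 fold change of -0.79. Acp2, the lysosomal acid phosphatase at chr2:91202885-91214098, fell from 246, 239, 275 and 248 CPM to 81.8, 72.2, 91.6 and 102 CPM. The strains were far apart, and the fall was 2.91-fold (log2 -1.54 ± 0.09), with the smallest adjusted p of the 40 genes (edgeR, 5.4e-07). Ddb2, on the opposite strand, shares 12.6% of its exon bases. Ppt1 at chr4:122836242-122859175 encodes the thioesterase that removes palmitate from proteins. It stood at 740, 574, 704 and 611 CPM in C57BL/6 mice and at 1522, 1621, 1271 and 1086 CPM in B6.SLE123 mice. The rise was 2.09-fold (log2 1.06 ± 0.12, edgeR adjusted p = 3.3e-05), with no overlap, and stood just under 2-fold without B6.SLE123 replicate 2 (log2 0.97). Ppt1 had the highest level per length in this group in both strains (mean 179 and 374 CPM per kb). In both strains its mice followed the order of the type 1 dendritic cell sum. That order was found for 3.56% of all genes in C57BL/6 and 5.44% in B6.SLE123 mice. The sum ranged from 3497 to 3999 CPM in C57BL/6 and from 5387 to 7110 CPM in B6.SLE123 mice.

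Asah1, the acid ceramidase, fell 1.76-fold (log2 -0.82 ± 0.13), from a mean of 320 ± 15.5 CPM (SD, n = 4) to 237, 194, 153 and 143 CPM. Its B6.SLE123 mice were spread more widely than those of most members (SD of log2 CPM 0.331, against a median of 0.142 over the 40 genes), and its lowest value was in replicate 4, unlike the large protease falls. Acp5, the tartrate-resistant acid phosphatase of osteoclasts and macrophages, fell 1.72-fold (log2 -0.79). Lipa, the acid lipase that frees cholesterol and fatty acids from lipoproteins, fell 1.58-fold (log2 -0.66). With Ppt1 among them the summed counts of the group did not follow its median, at 0.185 ± 0.011% of a mouse's counts in C57BL/6 and 0.202 ± 0.0235% in B6.SLE123, ranges that overlapped, while 4 of its 5 genes fell.

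Of the 4 activator and lipid transfer proteins 2 fell, and the group's median was -0.17. Psap, the precursor of the saposins that present sphingolipids to their hydrolases, led the set in level per length in both strains (mean 2333 and 2479 CPM per kb). It measured 6488, 5719, 6946 and 6451 CPM in C57BL/6 mice and 7511, 7418, 6344 and 5937 CPM in B6.SLE123 mice. The strains overlapped and the change did not pass the test (log2 0.09 ± 0.09, edgeR adjusted p = 0.41). Grn, progranulin, a precursor that is cleaved in lysosomes and sustains their function, fell from 617, 607, 719 and 637 CPM to 358, 360, 372 and 375 CPM. The B6.SLE123 mice lay within a narrow range, and the fall was 1.76-fold (log2 -0.82 ± 0.06, edgeR adjusted p = 1.0e-06).

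Npc1 and Npc2 hand cholesterol over for export from the lysosome. Npc2 measured 347, 343, 395 and 371 CPM in controls and 335, 315, 307 and 294 CPM in B6.SLE123 mice, a small fall (log2 -0.22 ± 0.06, edgeR adjusted p = 0.0074) with no overlap. Npc1 measured 128, 131, 132 and 128 CPM in controls and 113, 111, 131 and 125 CPM in B6.SLE123 mice, and did not pass the test (log2 -0.11 ± 0.05, edgeR adjusted p = 0.10). Without B6.SLE123 replicate 3 it did, at log2 -0.16 and an adjusted p of 0.022. The log2 ratio of Npc2 to Npc1 within a mouse was 1.49 ± 0.09 (SD, n = 4) and 1.38 ± 0.17, and did not differ detectably between the strains (exact permutation p = 0.314).

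Of 7 membrane proteins 5 fell, none of them more than 2-fold, and the median log2 fold change was -0.58. Cd68, the heavily glycosylated macrophage relative of the LAMP proteins, fell most, from 345, 333, 385 and 361 CPM to 187, 160, 181 and 202 CPM. The strains were far apart (log2 -0.97 ± 0.07, edgeR adjusted p = 1.4e-06). Lamp1 and Lamp2, the main coat proteins of the lysosomal membrane, fell 1.66-fold and 1.5-fold, Lamp1 from between 499 and 594 CPM to between 274 and 350 CPM and Lamp2 from between 171 and 189 CPM to between 108 and 124 CPM. Scarb2, which escorts β-glucocerebrosidase to lysosomes, fell 1.55-fold, and the calcium-releasing channel Mcoln1 fell 1.31-fold.

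Laptm5, a protein of leukocyte lysosomes that was the most abundant of this group per length (mean 467 and 449 CPM per kb), stood at 1764, 1674, 1811 and 1832 CPM in C57BL/6 mice and at 1677, 1641, 1684 and 1795 CPM in B6.SLE123 mice. The strains overlapped (log2 -0.06 ± 0.05, edgeR adjusted p = 0.32). Cd63, a tetraspanin of late endosomes and exosomes, measured 32.9, 44.0, 35.2 and 33.4 CPM in controls and 43.6, 37.4, 34.8 and 42.5 CPM in B6.SLE123 mice (log2 0.12 ± 0.10, edgeR adjusted p = 0.33). One control, replicate 2, stood above the others, and without it Cd63 passed the test (log2 0.22, adjusted p 0.042).

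Proton pump subunits changed by small amounts. Of 6 measured, 4 fell, and their log2 fold changes lay between -0.48 and 0.05 with a median of -0.26. Atp6ap1, an accessory subunit, fell most, from 212, 197, 231 and 222 CPM to 150.2, 140.1, 160.1 and 168 CPM (log2 -0.48 ± 0.07, edgeR adjusted p = 0.00011), with no overlap. Tcirg1, the a3 subunit of the membrane sector, had the highest level per length (mean 99.7 and 78.9 CPM per kb). It stood at 445, 453, 470 and 468 CPM in controls and 284, 389, 397 and 382 CPM in B6.SLE123 mice, with replicate 1 of B6.SLE123 far below the others, and fell 1.26-fold (log2 -0.34 ± 0.09, edgeR adjusted p = 0.0091). Atp6v1b2, a B subunit of the cytosolic sector, and Atp6v0c, the ring-forming subunit that carries the protons, fell by 0.26 each on the log2 scale, Atp6v1b2 with overlap.

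Atp6v1a, the catalytic subunit that splits ATP, and Atp6v0d1, which links both sectors, did not pass the test, and both hold TCACGTGA in their promoter windows. Atp6v1a measured 90.4, 96.2, 96.8 and 91.7 CPM in C57BL/6 mice and 106, 92.0, 94.6 and 97.1 CPM in B6.SLE123 mice (log2 0.05 ± 0.05, edgeR adjusted p = 0.39). Atp6v0d1 measured 107, 109, 114 and 108 CPM in controls and 106, 100, 100.1 and 103 CPM in B6.SLE123 mice. The strains did not overlap, and the difference was close to the threshold (log2 -0.10 ± 0.04, edgeR adjusted p = 0.057). It passed the test with total counts in place of TMM (0.043), with genes of at least 10 counts in every sample (0.035) and without B6.SLE123 replicate 1 (0.036).

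The 40 genes together took a smaller share of the RNA in B6.SLE123 mice. Their counts made up 2.37%, 2.25%, 2.56% and 2.40% of the total in the C57BL/6 mice and 1.96%, 1.92%, 1.87% and 1.85% in the B6.SLE123 mice. Without Psap the mean went from 1.76 ± 0.0853% (SD, n = 4) to 1.22 ± 0.0312%, and Psap alone made up 26.8% and 35.7% of the lysosomal counts. The share of the proteases went from 0.802 ± 0.048% to 0.393 ± 0.0424%. The order of the genes by level per length changed as well. After Psap and Ctss it ran Ctsb, Laptm5, Ctsz, Cd68, Lgmn and Ctsd in C57BL/6 mice (542 to 238 CPM per kb), and Laptm5, Ppt1, Ctsz, Ctsb, Man2b1 and Cd68 in B6.SLE123 mice (449 to 145 CPM per kb). Per-length levels divide by all annotated exon bases of a gene and are too low where a long isoform is rare.

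Many lysosomal genes were highest, or lowest, in the same mouse of a strain. In C57BL/6 mice 28 of the 40 genes were highest in replicate 3 and 26 lowest in replicate 2. The red pulp macrophage sum was likewise highest in replicate 3 (18800 CPM) and lowest in replicate 2 (14710 CPM). So was the type 2 dendritic cell sum (2241 and 2068 CPM). The marginal zone macrophage, monocyte, neutrophil, B cell and erythroid sums were also highest in replicate 3. The conventional, type 1 and plasmacytoid dendritic cell, T cell and NK cell sums were not. In B6.SLE123 mice 23 of the 40 genes were highest in replicate 4 and 24 lowest in replicate 2. The same was not counted over all genes, so these counts may not be particular to the lysosomal set. The median SD of log2 CPM within a strain was 0.0994 in C57BL/6 and 0.142 in B6.SLE123 mice for the lysosomal genes, beside 0.0976 and 0.115 for all genes.

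**Figure D3:**
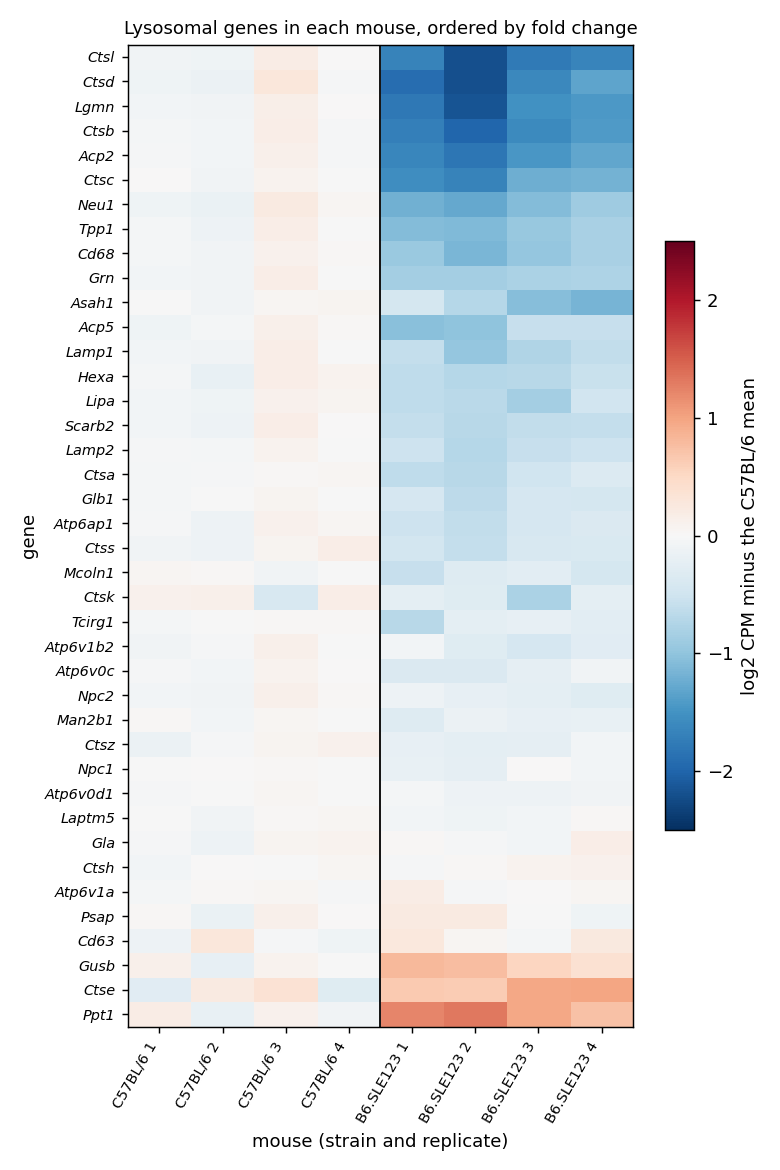
Log2 CPM of the 40 lysosomal genes (rows, ordered by fold change) in each of the 8 mice (columns) as the difference from the C57BL/6 mean of the gene, blue for lower and red for higher. The C57BL/6 columns are pale, the top 9 rows are blue in all 4 B6.SLE123 columns, most deeply in replicate 2, and the lowest 3 rows, Gusb, Ctse and Ppt1, are red.

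Other genes of the organelle had a smaller median change. Of 130 listed, 121 were in the table, with a median log2 fold change of -0.18. Of these, 61 fell and 25 rose, while over all genes tested 26.6% fell and 26.7% rose. Other hydrolases (36 genes) had 20 falls, 8 rises and a median of -0.26. The largest fall was that of Pla2g15, the lysosomal phospholipase of macrophages, from a mean of 276 ± 39.3 to 51.9 ± 14.5 CPM (SD, n = 4, log2 -2.42). The largest rise was that of Arsb, a sulfatase of glycosaminoglycans, from 82.5 ± 4.93 to 217 ± 19.6 CPM (log2 1.40), although an antisense transcript shares 32.3% of its exon bases. Other membrane proteins (30 genes) had 23 falls and 1 rise, with a median of -0.39, from the channel Mcoln2 (log2 -1.45) to Laptm4b (log2 0.36, edgeR adjusted p = 0.029). Laptm4b did not pass the test without C57BL/6 replicate 1, 2 or 4 or B6.SLE123 replicate 1, with adjusted p from 0.052 to 0.076, and its log2 fold change without the last was 0.21.

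Of 12 other proton pump genes 4 fell and 1 rose, where 26.6% of all genes fell and 26.7% rose. Alternative a subunits are encoded by 2 of those called. Atp6v0a1 fell from 87.2, 83.9, 90.5 and 79.8 CPM to 48.0, 44.3, 56.1 and 45.9 CPM (log2 -0.81). Atp6v0a2 rose from 131, 117, 122 and 123 CPM to 162, 174, 165 and 145 CPM (log2 0.39). Neither overlapped between strains. Genes that sort proteins to lysosomes were the list with more rises than falls, 9 against 4 of 19, with a median of 0.11, a highest log2 fold change of 0.54 for the adaptor subunit Ap1b1 and a lowest of -0.66 for the sorting receptor Sort1.

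Among 20 regulators of lysosomal genes and of nutrient signals at the lysosome, 9 fell and 5 rose. Shares over all genes tested were 26.6% lower and 26.7% higher. Of the 4 transcription factors of the TFEB and MITF family 3 fell. Tfec, which is known from macrophages and osteoclasts, fell from 25.0, 20.7, 26.7 and 23.2 CPM to 4.94, 4.44, 8.11 and 6.77 CPM (log2 -1.98 ± 0.17, edgeR adjusted p = 3.3e-06), and Mitf fell from 21.8, 21.3, 24.5 and 19.2 CPM to 8.39, 7.47, 9.97 and 8.70 CPM (log2 -1.33 ± 0.10). Both are of low level. Tfe3 fell from a mean of 115 ± 0.92 to 97.3 ± 7.12 CPM (log2 -0.24 ± 0.05, edgeR adjusted p = 0.0025). Tfeb did not pass the test, at 124 ± 7.58 and 116 ± 9.83 CPM (log2 -0.10 ± 0.07, edgeR adjusted p = 0.21), but did without B6.SLE123 replicate 4 (log2 -0.17, adjusted p 0.030). The largest rise in this list was that of Fnip2, a folliculin partner (log2 0.83). RNA levels do not show the activity of these factors.

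Of 4 measured inhibitors of cathepsins, Cst3, which encodes the secreted cystatin C and is abundant in dendritic cells, rose from 1774, 1517, 1867 and 1739 CPM to 3210, 3233, 2577 and 2454 CPM (log2 0.73 ± 0.10, edgeR adjusted p = 0.00010). The strains did not overlap, and the 2 highest values were in replicates 1 and 2 of B6.SLE123, as for Ppt1 and Gusb. Cstb, a cytosolic inhibitor, fell from a mean of 31.9 to 26.0 CPM (log2 -0.30).

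**Figure D4:**
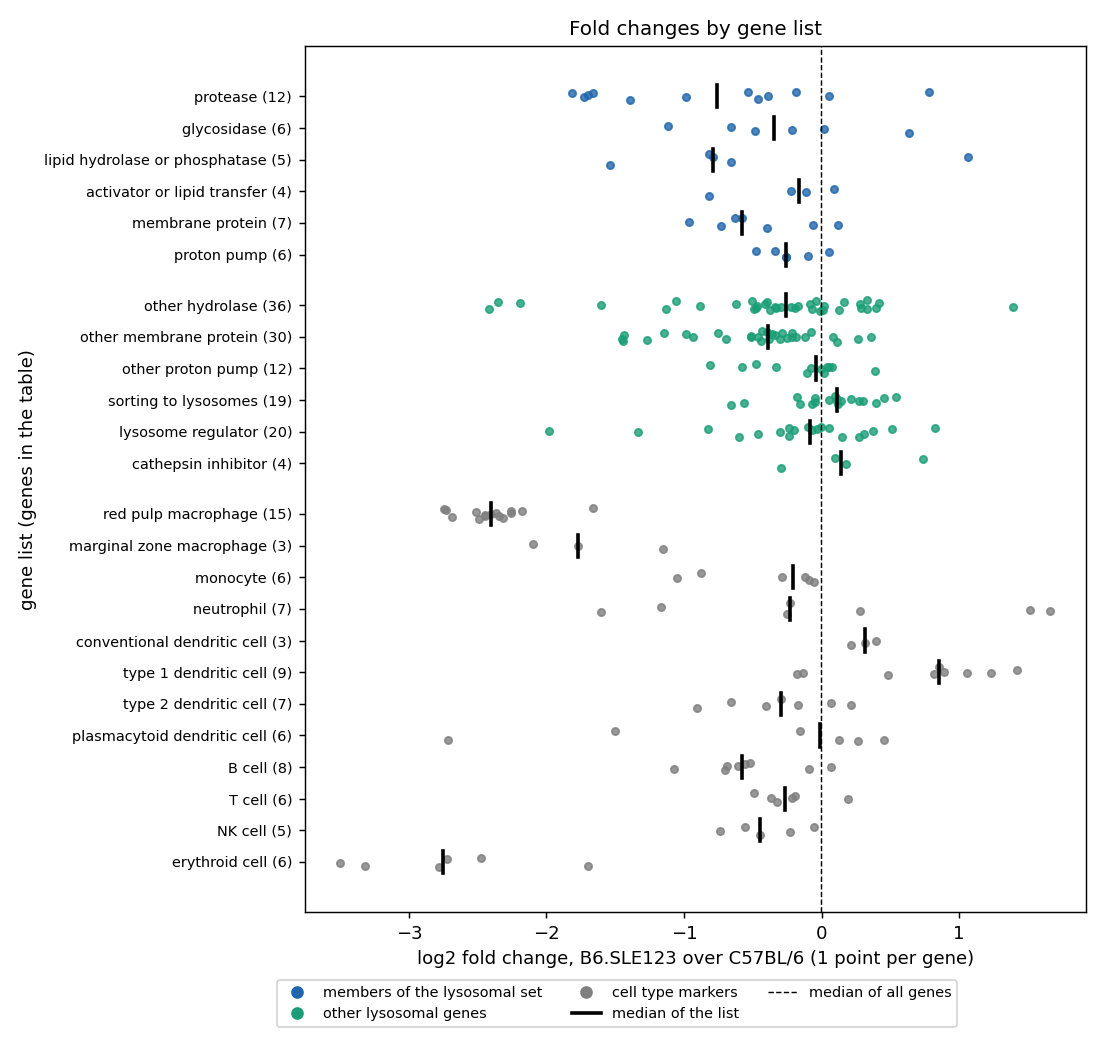
Log2 fold change (x axis, B6.SLE123 over C57BL/6) of every gene in the 6 role groups of the lysosomal set (blue), in 6 lists of other lysosomal genes (green) and in 12 lists of cell type markers (grey), with 1 point per gene, a thick bar at each list's median and a dashed line at the median of all genes. The protease median lies at -0.76 and the red pulp macrophage median at -2.40, while type 1 dendritic cell markers lie mostly to the right.

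Lysosomal genes on the chromosomes of the 3 congenic intervals moved in both directions. On chromosome 1 Ctse rose, on chromosome 4 Ppt1 rose and Laptm5 did not pass the test, and on chromosome 7 Ctsc, Ctsd and Tpp1 all fell. Of the other 34 genes, which lie on other chromosomes, 25 fell and 1 rose. These counts are by whole chromosome, and whether a gene lies inside an interval was not examined.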

How the data were processed

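Stranded mRNA libraries of splenocytes positive for CD11c were sequenced, 4 from C57BL/6 and 4 from B6.SLE123 mice. Per the methods and the submitters' processing notes, reads were checked with FastQC, trimmed with cutadapt, aligned to mm10 with STAR and quantified with featureCounts. Tool versions, the annotation and the use of strand in counting are not given in the sources used here. The authors deposited 1 table of raw counts per gene and mouse, restricted to 13786 protein-coding genes whose larger strain median count was at least 5. Its 7 columns of the authors' DESeq2 comparison (mean signal, fold changes, standard error, test statistic and p-values) were not used. Symbols turned into dates by a spreadsheet were restored for 21 genes, and coordinates of 13663 genes match those of GENCODE M21, whose merged exons gave the lengths for CPM per kb (13777 genes).

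Counts were scaled by TMM and compared with the quasi-likelihood F test of edgeR 4.0.16 in R 4.3.3, with Benjamini-Hochberg adjustment over all 13786 genes, no covariate and no filter. Standard errors were taken as the log2 fold change divided by the square root of F. A prior count of 2 was added for log2 CPM. The fit was tested on simulated counts. For ratios of 2 genes within a mouse the test was an exact two-sided permutation of the mice. Of 4 ratios planned, the one with Atp6v0d2 could not be run. Alternatives were relative log expression and upper quartile factors, total counts, at least 10 counts in every sample, DESeq2 1.42.0, limma-voom (limma 3.58.1), the replicate number as a block, each mouse left out in turn, a prior count of 0.5 for the ratios, and CACGTG in place of TCACGTGA. Intervals of shares are exact binomial (scipy 1.17.1).

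The members, the role groups, the lists of other lysosomal genes and of cell type markers, and the motifs were chosen with earlier results of these data known. Values per mouse are given for members changed more than 2-fold, for the highest level per length and the largest called change in each role group, for members called against the main direction, for the largest changes among members that did not pass the test and for the genes of the ratios, with further members where mice set the call. From each other lysosomal list the largest called rise and fall are given, with Tfeb, Tfe3, Mitf and Tfec. The study's single-cell, RT-PCR and human experiments were not analysed here.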

Additional observations from a re-analysis of the deposited data

Results flagged for a closer look

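Among 126 groups of 4 mice (a named gene within a strain), 9 had a mouse that lay far from the other 3 by Dixon's 95% criterion, where chance gives about 1 in 20, or 6.3 groups. Values are log2 CPM of the distant mouse, with the median of its strain. In C57BL/6 mice Ctsb was high in replicate 3 (11.84, median 11.63), Ctsk low in replicate 3 (-1.02, median -0.57), Tfe3 high in replicate 1 (6.86, median 6.84) and Ap1b1 low in replicate 2 (7.39, median 7.44). In B6.SLE123 mice Ctsk was low in replicate 3 (-1.35, median -0.92), Ctsz high in replicate 4 (9.14, median 9.00), Glb1 low in replicate 2 (4.94, median 5.17), Scarb2 low in replicate 2 (6.76, median 6.85) and Tcirg1 low in replicate 1 (8.15, median 8.59). The distance was small on the log2 scale for Tfe3 and Ap1b1 and larger for Ctsk and Tcirg1.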

How the results depend on the processing

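Of the 40 lysosomal genes, 35 stayed on the same side of the threshold, with the same sign, under all 15 alternative settings of the fit. Among the values that answer a comparison, 178 of 179 moved by less than the margins set. The exception was the count of all genes changed more than 2-fold, which was 985 in place of 1524 with at least 10 counts in every sample, since 12053 genes were then tested. Called lysosomal genes numbered 27 to 29 lower and 3 to 4 higher when a mouse was left out, and 7 to 10 changed more than 2-fold. The Gla log2 fold change, which did not pass the test, ranged from -0.041 to 0.046 with 1 mouse left out and turned negative without C57BL/6 replicate 2 (-0.025) and without B6.SLE123 replicate 4 (-0.041). Among the 40 genes the call depended on a setting for Ctsz, Npc1, Cd63 and Atp6v0d1, and among the named other lysosomal genes for Tfeb and Laptm4b, and the cause was not tested. Over all other lysosomal genes, 20 to 24 were called higher and 57 to 61 lower when a mouse was left out. The median of all genes stayed between -0.01 and 0.02.

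With the replicate number as a block, 28 lysosomal genes fell, 3 rose and 8 changed more than 2-fold, as without it, and the median was -0.47. Deviations of mice with the same number correlated at 0.09, 0.21, 0.09 and 0.13 over 10764 genes, and 3 of the 4 C57BL/6 mice correlated best with their own number, while replicate 3 did so with B6.SLE123 replicate 1 (0.10). Since 2 of the 4 were under 0.1 and no label ties the numbers to a batch, the mice were treated as unpaired. Ctsk was the 1 gene with fewer than 100 counts in a mouse. The Ctsl to Ctss ratio cannot fall below an exact p of 0.0286 with 4 mice per strain.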

Other observations

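The lysosomal genes below belong to the lists but were chosen after their values were seen. Dnase2a, the acid DNase that digests the DNA of engulfed cells, fell from a mean of 113 to 54.4 CPM (log2 -1.06, edgeR adjusted p = 1.1e-06), although another gene shares 30% of its exon bases. Hgsnat and Arsg, which act in heparan sulfate breakdown, fell with log2 fold changes of -1.60 and -2.19, while Ids and Sgsh of the same pathway did not pass the test. Galc, the galactosylceramidase, fell with -1.13. Ctsf, a further cysteine cathepsin, went from 19.0 to 3.77 CPM (log2 -2.35, edgeR adjusted p = 2.3e-06). Against these, Gm2a, the ganglioside activator, and Plbd1 rose, by 0.40 and 0.33 on the log2 scale, from means of 1558 and 1111 CPM.

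Slc15a3 and Slc15a4 both carry histidine and peptides out of endolysosomes. Slc15a3 fell from 110 to 40.5 CPM (log2 -1.44, edgeR adjusted p = 1.3e-06), while Slc15a4, at 121 and 131 CPM, did not pass the test (log2 0.12, adjusted p = 0.064). The difference between the 2 genes was not tested. Tmem132a, on the opposite strand, shares 28.1% of the exon bases of Slc15a3. Slc11a1, the phagosomal metal transporter of macrophages known as Nramp1, fell from 396 to 146 CPM (log2 -1.44). Both receptors for mannose 6-phosphate rose slightly, M6pr by 0.14 (edgeR adjusted p = 0.034) and Igf2r by 0.39 (adjusted p = 0.0087) on the log2 scale, and of the adaptor genes listed Ap1m1, Ap1b1, Ap1g1, Ap3b1, Ap3m1 and Ap3s1 rose and Gga2 fell (log2 -0.18, edgeR adjusted p = 0.033), while Ap1s1, Ap1s2, Ap3d1, Gga1 and Gga3 did not pass the test.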
